A study of Mus musculus with 4 samples.

Results

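The NF-kappaB genes described here are 10 genes of the mouse NF-kappaB system, chosen by name and read from whole-kidney RNA. They comprise the subunits Nfkb1, Nfkb2, Rel and Relb, the inhibitor and its relatives Nfkbia, Nfkbiz and Bcl3, and the induced genes Tnfaip3, Birc3 and Icam1. The array annotation listed 18 probe sets for 9 of the 10, out of 45037 probe sets and 18193 genes on the array, and Nfkb1, with none listed under its symbol, was not analysed here. A floor at the 40th percentile of all signals, a log2 signal of 5.72, marked the level under which a signal was not read. Of the 9 genes, 8 were over it on all 4 arrays, as were 13808 genes of the array on 1 or more arrays. Rel was under it on every array.

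The study set 4 groups of kidneys from male C57Bl/6 mice beside each other: mice labelled Tet2 knockout after 60 min of renal ischemia and 24 h of reperfusion, wild-type mice after the same injury, mice labelled Tet2 knockout after sham surgery, and wild-type mice after sham surgery. Ischemia-reperfusion stops and then restores the blood supply of the kidney and causes damage above all in tubule cells. The Tet2 protein is an oxidase of methylated cytosine in DNA, and the labels do not say how its gene was altered or in which cells. Each group was 1 Affymetrix array with RNA pooled from 3 mice. No spread between mice and no p-value can therefore be given, and the number of arrays limits every value.

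NF-kappaB transcription factors are dimers of proteins of the Rel family that wait in the cytoplasm bound to inhibitors of the IkB family. Signals from cytokine and pattern-recognition receptors lead a kinase complex to mark the inhibitor for destruction, and the freed dimer enters the nucleus. Among the genes it switches on are its own inhibitors, its own subunits and adhesion molecules for leukocytes, so that the transcripts of these feedback genes are often used as a sign of pathway activity. A slower branch of the pathway runs through the precursor made by Nfkb2 and its partner Relb. In the kidney the pathway is known from tubule cells, endothelium and infiltrating leukocytes after injury.

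The arrays carried the transcripts of kidney: all 10 proximal tubule genes were over the floor on every array, and so were the 5 genes read for other nephron segments. The summed linear signal of the proximal tubule genes was 66478 in knockout-labelled and 96541 in wild-type kidneys after injury, and 114744 in knockout-labelled and 114909 in wild-type kidneys after sham surgery. Of these 10 genes, 6 were lower at 2-fold after injury in the knockout-labelled pair (median log2 ratio -1.30), against 6.89% of all genes. In the wild-type pair 1 was lower (median -0.42), against 2.18%. Between the injury arrays 5 were lower in knockout-labelled kidneys, against 3.99% of all genes. Signals ran from 2.51 to 14.97 on the log2 scale. The column medians lay between 6.28 and 6.33. Across probe sets, knockout-labelled injury and sham had a correlation of r = 0.963, and wild-type injury and sham one of r = 0.986. Tet2 was not lower on the knockout-labelled sham array: its probe sets had log2 ratios of -0.09 and 0.41 over wild type there, and -0.41 and -0.70 after injury. Where these probe sets lie relative to the deletion is not known here, so the groups are called knockout-labelled.

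Markers of other cells differed between the arrays, in the order knockout-labelled injury, wild-type injury, knockout-labelled sham and wild-type sham. The summed linear signal of 6 fat genes was 1357, 252, 233 and 2395, and 5 of them passed the floor on 1 or more arrays, with Lep under it on all. The fat hormone gene Adipoq had log2 signals of 9.31, 4.46, 4.19 and 10.11. Fat RNA was thus high on the knockout-labelled injury and wild-type sham arrays and under the floor for Adipoq on the other two. The 10 neutrophil genes summed to 2504, 726, 571 and 563, with 8 over the floor on 1 or more arrays and Mpo and Cxcr2 under it on all. S100a8, a calcium-binding protein of neutrophils that other cells can also make, had log2 signals of 10.03, 6.95, 5.09 and 5.58. In the knockout-labelled pair 2 of 8 measured neutrophil genes, S100a8 and S100a9, were higher at 2-fold, against 6.06% of all genes. The other 6 had log2 ratios from -0.35 to 0.42, so that the list median was 0.22. The 11 monocyte and macrophage genes summed to 1689, 2018, 4099.5 and 4061, 10 of them over the floor on 1 or more arrays and Itgam on none. Csf1r, with the highest signals of these, had 9.13, 9.98, 11.40 and 11.34 in log2. After injury 3 of 10 measured were lower at 2-fold in the knockout-labelled pair and 4 of 10 in the wild-type pair, against 6.89% and 2.18% of all genes. Cd68 alone was higher, at least 4.46-fold and 4.94-fold, against 6.06% and 2.06% of all genes. The 10 lymphocyte genes summed to 579.9, 659, 742 and 679, with 6 over the floor and Cd3g, Cd79a, Cd79b and Ncr1 under it on all. The 13 endothelial genes summed to 3924, 2009, 4703 and 4829, with 12 over it and Vwf under it on all, the 7 urothelial genes to 1073, 866, 672 and 1565, and the 7 injured tubule genes to 51273, 32512, 4038 and 5868, each of these genes over the floor on 1 or more arrays. The part of these cell types in the results below was not tested, and in whole tissue fewer cells of a type and less RNA per cell cannot be told apart.

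The promoters of 5 members are shown, picked because they hold a match to a kappaB motif, the DNA element that NF-kappaB dimers bind. The sequences are from RefSeq, build GRCm38.p6, and run 5′ to 3′ from 250 bases before to 50 bases after the gene's start. Capitals mark matches, on either strand, to the kappaB consensus or to GGANNTTCC, motifs that can overlap at 1 site. Nfkbia lies on the minus strand at chr12:55492598-55492897, Nfkb2 on the plus strand at chr19:46304487-46304786 (the first of 3 listed starts), Bcl3 on the minus strand at chr7:19822706-19823005, Tnfaip3 on the minus strand at chr10:19015361-19015660 (the first of 2) and Icam1 on the plus strand at chr9:21015690-21015989.
Nfkbia: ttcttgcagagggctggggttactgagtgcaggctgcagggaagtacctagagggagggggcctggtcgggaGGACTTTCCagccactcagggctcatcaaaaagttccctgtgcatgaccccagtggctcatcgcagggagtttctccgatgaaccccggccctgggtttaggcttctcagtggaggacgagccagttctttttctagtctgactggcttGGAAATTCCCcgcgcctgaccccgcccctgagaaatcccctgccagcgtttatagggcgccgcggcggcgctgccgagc
Nfkb2: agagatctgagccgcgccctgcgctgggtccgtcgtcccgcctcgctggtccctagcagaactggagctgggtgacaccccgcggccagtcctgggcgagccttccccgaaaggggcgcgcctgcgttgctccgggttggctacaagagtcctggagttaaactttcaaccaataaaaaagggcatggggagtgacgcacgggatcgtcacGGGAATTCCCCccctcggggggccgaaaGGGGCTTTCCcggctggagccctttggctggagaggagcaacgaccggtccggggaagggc
Bcl3: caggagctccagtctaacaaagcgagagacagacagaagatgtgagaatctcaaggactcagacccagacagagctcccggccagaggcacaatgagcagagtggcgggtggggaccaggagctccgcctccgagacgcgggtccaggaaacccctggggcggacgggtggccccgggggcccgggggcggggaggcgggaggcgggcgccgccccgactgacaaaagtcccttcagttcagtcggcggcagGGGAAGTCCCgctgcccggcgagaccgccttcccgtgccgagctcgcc
Tnfaip3: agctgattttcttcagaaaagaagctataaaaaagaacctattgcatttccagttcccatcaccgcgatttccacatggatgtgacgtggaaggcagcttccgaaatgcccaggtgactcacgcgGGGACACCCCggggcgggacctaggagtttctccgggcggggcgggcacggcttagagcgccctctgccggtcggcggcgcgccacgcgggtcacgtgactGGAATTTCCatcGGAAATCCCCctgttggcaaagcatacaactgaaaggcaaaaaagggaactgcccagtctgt
Icam1: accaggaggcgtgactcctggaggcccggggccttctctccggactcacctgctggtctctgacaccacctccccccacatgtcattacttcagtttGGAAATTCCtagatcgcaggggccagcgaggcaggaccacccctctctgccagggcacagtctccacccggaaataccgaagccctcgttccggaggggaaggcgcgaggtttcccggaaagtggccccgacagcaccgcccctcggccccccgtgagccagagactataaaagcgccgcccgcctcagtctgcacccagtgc
Of the 10 genes, 7 had promoters in the table, 10 in all, and 8 of these 10 held either motif. By gene, 6 of the 7 had a match. The later 2 of the 3 Nfkb2 windows overlap and share 1 site. Among all 32851 promoters of that length 7.76% held either motif, 4.26% held GGANNTTCC and 4.51% held the kappaB consensus. The genes were chosen as members and targets of the pathway, so the share is a description of the list. Nfkbia and Tnfaip3 have matches close before their starts, Icam1 has 1 marked site farther upstream, and that of Bcl3 lies just after the start. Neither motif was found in the listed window of Birc3, which says only that these letters are not there. Rel, whose transcript was under the floor, also has a match.

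Each measured member had its highest signal on the knockout-labelled injury array, in the probe set read for it. How many of all genes did so was not counted. For 6 of the 8, namely Nfkb2, Relb, Bcl3, Tnfaip3, Birc3 and Icam1, the arrays ran in 1 order, from knockout-labelled injury through wild-type injury and knockout-labelled sham to wild-type sham. That order was seen in 12.4% of the 13808 genes. Not each step of it was larger than the technical SD, the spread of such differences between probe sets of the same gene. Between the injury arrays the steps of 0.32 for Nfkb2, 0.24 for Icam1 and 0.06 for Tnfaip3 were under the technical SD of 0.33, and between the sham arrays the step of 0.15 for Tnfaip3 was under 0.19. In the second Nfkb2 probe set wild-type sham, at 7.56, lay above knockout-labelled sham, at 7.53. Nfkbia and Nfkbiz departed from that order, with their lowest signal on the knockout-labelled sham array. The order of Nfkbiz was seen in 8.05% of the 13808 genes and that of Nfkbia in 2.72%. Levels are compared here only within a probe set, because brightness differs between probes.

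**Figure D1:**
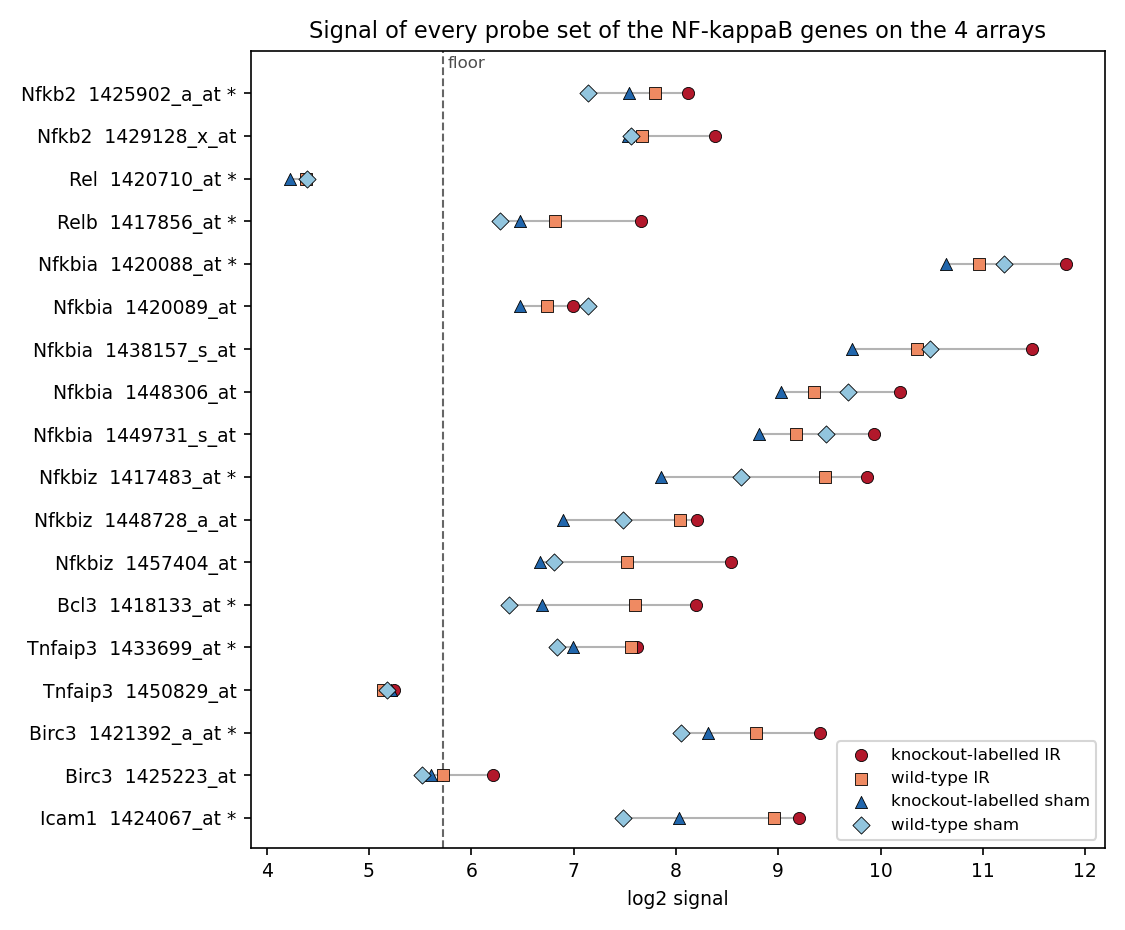
Log2 signal of all 18 probe sets (rows) on the 4 arrays, 1 point per array (IR, ischemia-reperfusion); an asterisk marks the probe set read for the gene, and the dashed line is the floor at 5.72. Circles for knockout-labelled injury lie farthest right except in 1 Nfkbia probe set and Rel, where wild-type sham is highest, and Rel and a Tnfaip3 probe set lie left of the floor.

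Among the subunits, Relb, the partner of the processed Nfkb2 product, had log2 signals of 7.66 in knockout-labelled and 6.81 in wild-type kidneys after injury, and of 6.48 in knockout-labelled and 6.28 in wild-type kidneys after sham surgery. The knockout-labelled injury array stood above the other three. Relb was 2.26-fold higher after injury in the knockout-labelled pair and 1.45-fold higher in the wild-type pair. With the floor at the 60th percentile its log2 ratio in the knockout-labelled pair was 0.68, in place of 1.18. Nfkb2, the precursor subunit of the slower branch, had log2 signals of 8.12 and 7.80 in knockout-labelled and wild-type kidneys after injury, and of 7.54 and 7.14 in knockout-labelled and wild-type kidneys after sham surgery. It was 1.49-fold higher after injury in the knockout-labelled pair and 1.58-fold higher in the wild-type pair. A second Nfkb2 probe set, of a type that can bind other transcripts, had log2 ratios of 0.85 and 0.11 in these pairs. It therefore put the response of wild-type kidneys near 0, while both probe sets were higher after injury in the knockout-labelled pair. Rel, a subunit best known from lymphocytes, had log2 signals of 4.38 and 4.39 in knockout-labelled and wild-type kidneys after injury, and of 4.23 and 4.40 in knockout-labelled and wild-type kidneys after sham surgery. All 4 lay under the floor, so no difference in Rel was readable.

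Nfkbia encodes IkB-alpha, the inhibitor that is destroyed on activation and made anew by NF-kappaB itself, and its kappaB sites are among the sequences above. The probe set read for it, 1420088_at, had log2 signals of 11.81 in knockout-labelled and 10.96 in wild-type kidneys after injury, and of 10.64 in knockout-labelled and 11.20 in wild-type kidneys after sham surgery. Knockout-labelled kidneys thus gave both the highest and the lowest value, and the wild-type arrays lay between them. Nfkbia was 2.25-fold higher after injury in the knockout-labelled pair and 1.18-fold lower in the wild-type pair, the last about as large as the spread between probe sets of a gene in that pair.

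Nfkbia had 5 probe sets, which read the same 4 RNA pools and are no replicates. Each was lowest on the knockout-labelled sham array, and 4 were highest on the knockout-labelled injury array, while 1 was highest on the wild-type sham array. In the knockout-labelled pair all 5 were higher after injury, with log2 ratios from 0.52 to 1.76. In the wild-type pair all 5 were lower, from -0.40 to -0.12. Between the sham arrays all 5 were lower in knockout-labelled kidneys, from -0.76 to -0.56, and between the injury arrays all 5 were higher, from 0.26 to 1.12. A second probe set, 1448306_at, had log2 signals of 10.19 and 9.35 in knockout-labelled and wild-type kidneys after injury, and of 9.03 and 9.68 in knockout-labelled and wild-type kidneys after sham surgery. The direction in the wild-type pair depended on the control: against the knockout-labelled sham array Nfkbia had a log2 ratio of 0.32, and against the mean of both sham arrays 0.04. Its ratio in knockout-labelled injury was 0.61 against the wild-type sham array. The wild-type sham array, the second highest in the probe set read for the gene, is also the array with the highest fat and urothelial sums given above. The part of these or other cells in the Nfkbia signals was not tested.

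Nfkbiz encodes IkB-zeta, a nuclear protein of the IkB family that acts as a cofactor for a subset of NF-kappaB targets. Its read probe set, 1417483_at, had log2 signals of 9.87 in knockout-labelled and 9.46 in wild-type kidneys after injury, and of 7.85 in knockout-labelled and 8.63 in wild-type kidneys after sham surgery. Both injury arrays stood above both sham arrays, and knockout-labelled sham was lowest. Nfkbiz was 4.04-fold higher after injury in the knockout-labelled pair, the largest response among the members there, and 1.78-fold higher in the wild-type pair. Its 3 probe sets had log2 ratios from 1.31 to 2.02 in the knockout-labelled pair and from 0.56 to 0.83 in the wild-type pair. The size rested on the sham arrays too: against the sham array of the other genotype, knockout-labelled injury had a log2 ratio of 1.23 and wild-type injury 1.61.

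**Figure D2:**
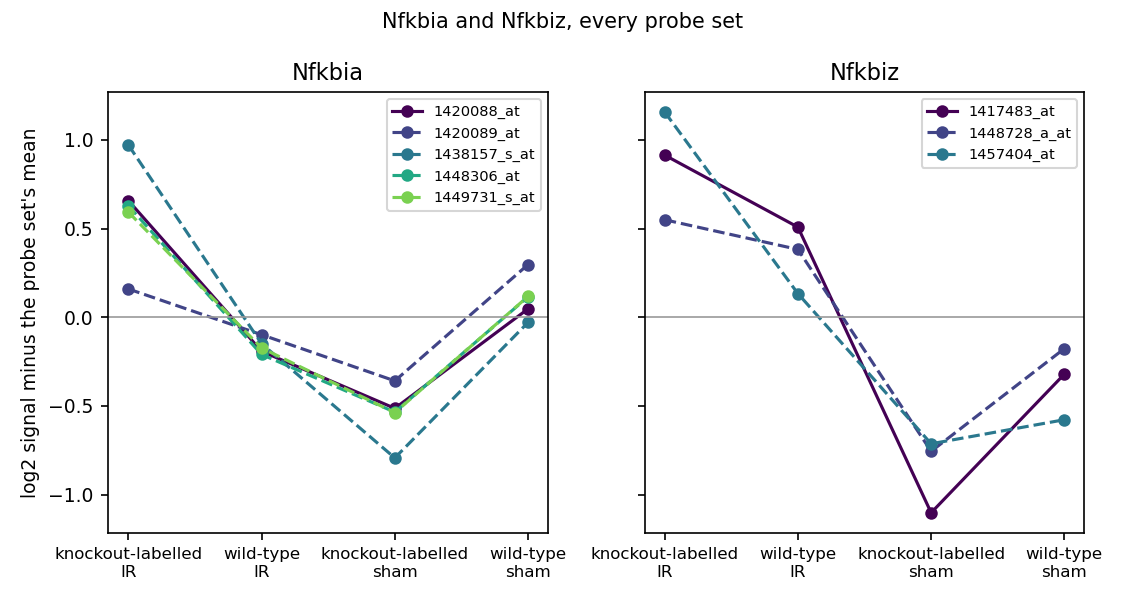
Log2 signal of each probe set of Nfkbia (left, 5 probe sets) and Nfkbiz (right, 3) on the 4 arrays, minus the probe set's own mean; solid lines mark the probe set read for the gene, and lines join arrays only to guide the eye. The knockout-labelled sham array is lowest in all 8 lines, and Nfkbia is lower on the wild-type injury than on the wild-type sham array in all 5.

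Bcl3, another nuclear relative of IkB that binds homodimers of the processed subunits, had log2 signals of 8.20 in knockout-labelled and 7.60 in wild-type kidneys after injury, and of 6.69 in knockout-labelled and 6.37 in wild-type kidneys after sham surgery. Both injury arrays stood above both sham arrays. It was 2.85-fold higher after injury in the knockout-labelled pair and 2.35-fold higher in the wild-type pair, where only 1.29% of the measured genes had a higher ratio. In wild-type kidneys the fold of Bcl3 depended on its low sham signal: its log2 ratio there was 1.23, and it was 0.62 with the floor at the 60th percentile.

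Of the other feedback and target genes, Icam1, the leukocyte adhesion receptor of endothelium and injured tubules, had log2 signals of 9.20 in knockout-labelled and 8.96 in wild-type kidneys after injury, and of 8.03 in knockout-labelled and 7.48 in wild-type kidneys after sham surgery. The injury arrays lay close together and both above the sham arrays. Icam1 was 2.25-fold higher after injury in the knockout-labelled pair and 2.78-fold higher in the wild-type pair, the largest response of a member there, with only 0.783% of measured genes above it. The sum of the endothelial markers was lowest on the wild-type injury array, at 2009, and their part in the Icam1 signals was not tested.

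Birc3, an inhibitor of apoptosis that also takes part in signalling from TNF receptors, had log2 signals of 9.40 in knockout-labelled and 8.79 in wild-type kidneys after injury, and of 8.32 in knockout-labelled and 8.05 in wild-type kidneys after sham surgery. It was 2.13-fold higher after injury in the knockout-labelled pair and 1.66-fold higher in the wild-type pair. Its other probe set lay over the floor only on the knockout-labelled injury array, at 6.22, and gave a log2 ratio of 0.50 in that pair, with its sham signal set to the floor. Tnfaip3, a ubiquitin-editing enzyme that shuts off NF-kappaB signalling, had log2 signals of 7.62 in knockout-labelled and 7.56 in wild-type kidneys after injury, and of 6.99 in knockout-labelled and 6.84 in wild-type kidneys after sham surgery. The injury arrays could hardly be separated for Tnfaip3, and both stood above the sham arrays. It was 1.55-fold higher after injury in the knockout-labelled pair and 1.66-fold higher in the wild-type pair, and its other probe set lay under the floor on all 4 arrays.

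The comparison of ischemia-reperfusion with sham surgery asks how these genes stood 24 h into reperfusion. In the knockout-labelled pair 6 of the 8 measured members were higher at 2-fold or more and 0 lower. Over all genes 6.06% were higher and 6.89% lower. The 6 were Nfkbiz, Bcl3, Relb, Nfkbia, Icam1 and Birc3. All 8 ratios were above 0, as were 48.2% of those of all 13600 measured genes. Those of the members ran from 0.57 to 2.02 on the log2 scale, with a median of 1.17, against -0.02 for all genes. By probe set, 11 of the 16 measured were higher and 0 lower, against 6.11% of all probe sets higher and 5.94% lower. Probe sets of the same gene differed in this ratio with a technical SD of 0.41, which does not cover differences between mice.

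In the wild-type pair 2 of the 8, Icam1 and Bcl3, were higher at 2-fold or more and 0 lower, against 2.06% of all genes higher and 2.18% lower. By probe set, 2 of 15 were higher and 0 lower, against 1.62% and 1.82% of all probe sets. The median log2 ratio of the members was 0.73, against 0.02 for all 13531 measured genes, and the technical SD was 0.24. Only Nfkbia lay below 0, and 52.5% of all genes lay above 0. The whole spread of responses was narrower in this pair, with the 5th to 95th percentile of all genes from -0.67 to 0.64, against -1.21 to 1.09 in the knockout-labelled pair. Read by rank, 5 of the 8 members in the knockout-labelled pair and 6 of the 8 in the wild-type pair had under 5% of the measured genes above them. Against the sham array of the other genotype, 1 member, Nfkbiz, was at 2-fold in wild-type injury, in place of Icam1 and Bcl3.

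**Figure D3:**
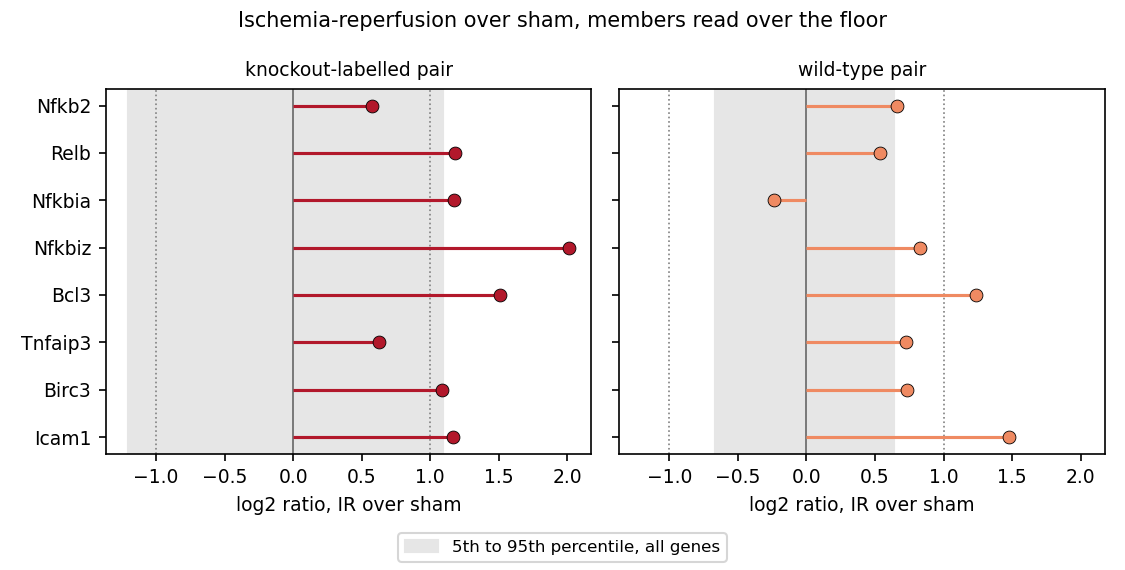
Log2 ratio of ischemia-reperfusion over sham (x axis) for the 8 members over the floor (rows), in the knockout-labelled pair (left) and the wild-type pair (right); the grey band spans the 5th to 95th percentile of all measured genes and dotted lines mark 2-fold. In the knockout-labelled pair 6 members lie past 2-fold, in the wild-type pair Icam1 and Bcl3, and Nfkbia lies left of 0 in the wild-type pair alone.

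The comparison of the genotypes after injury asks whether knockout-labelled kidneys held more or less of these transcripts. All 8 measured members had ratios above 0 in knockout-labelled injury, as did 48.8% of all genes. Their log2 ratios ran from 0.06 to 0.85 with a median of 0.50. Of the 8, 0 reached 2-fold in either direction, against 3.68% of all genes higher and 3.99% lower. By probe set, 2 of 16 were higher, 1 each of Nfkbia and Nfkbiz, and 0 lower, against 3.37% and 3.4% of all probe sets. Nfkbia, at 1.80-fold, and Relb, at 1.79-fold, had the largest ratios. Birc3 was 1.53-fold and Bcl3 1.51-fold higher. The ratios of Nfkb2, Icam1 and Tnfaip3, 0.32, 0.24 and 0.06 on the log2 scale, were smaller than the technical SD of 0.33. The 5th to 95th percentile of all genes, -0.89 to 0.87, contained all 8.

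Between the sham arrays, which ask for a difference without injury, 0 of 8 members reached 2-fold, against 0.186% of all genes higher and 0.846% lower. By probe set, 0 of 15 did, against 0.176% higher and 0.858% lower. The median log2 ratio was 0.23 over the 8 members and -0.14 over the 15 probe sets, 8 of which belong to Nfkbia and Nfkbiz, and its sign so depends on the unit counted. Nfkbiz was 1.72-fold and Nfkbia 1.47-fold lower in knockout-labelled kidneys, and 1.37% and 2.59% of measured genes had lower ratios. Icam1 was 1.46-fold higher in knockout-labelled kidneys, with 1.22% of genes above it. The other 5 had log2 ratios from 0.15 to 0.40, of which that of Tnfaip3 was smaller than the technical SD of 0.19. The second Nfkb2 probe set, at -0.03, did not show the 0.40 of the first. Fat and urothelial genes were lower on the knockout-labelled sham array as well, with Adipoq under the floor there. So were 2 of 7 injured tubule genes at 2-fold, Havcr1, which encodes a membrane protein of injured proximal tubule, by 5.72-fold and the keratin gene Krt18 by 4.54-fold. The part of these genes in the lower Nfkbia and Nfkbiz signals was not tested.

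**Figure D4:**
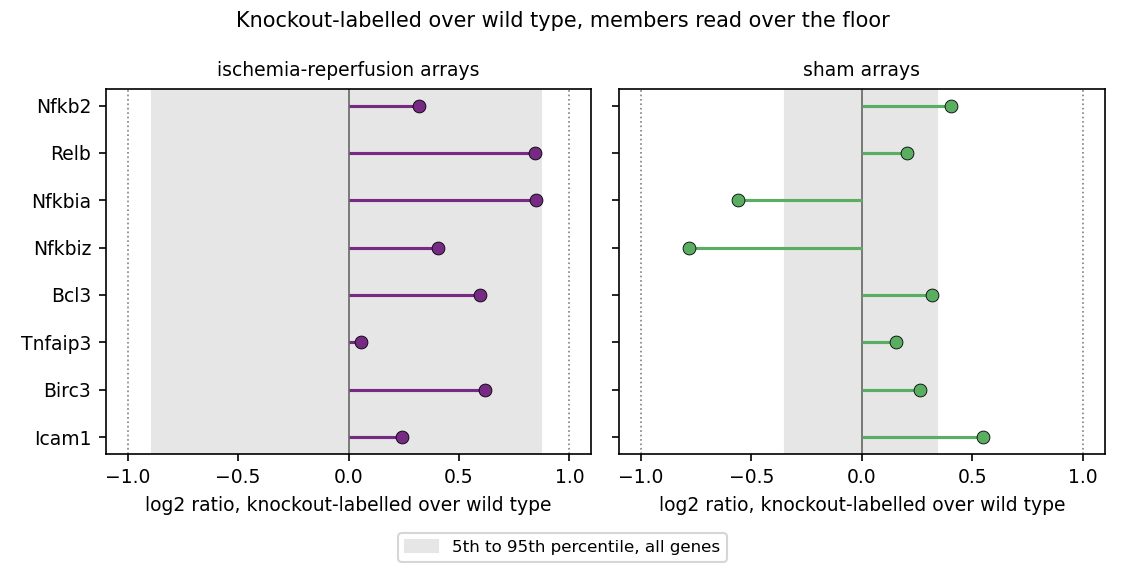
Log2 ratio of knockout-labelled over wild type (x axis) for the 8 members (rows), on the ischemia-reperfusion arrays (left) and the sham arrays (right), with the band of the 5th to 95th percentile of all measured genes and dotted lines at 2-fold. All 8 lie right of 0 and within the band after injury, after sham surgery Nfkbia and Nfkbiz lie left of 0 and outside it, and Icam1 and Nfkb2 right of it.

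The difference between the responses, knockout-labelled minus wild type, was at 2-fold or more for 2 of 8 members, against 4.75% of all genes higher and 4.77% lower. These were Nfkbia, with a difference of 1.41 on the log2 scale, and Nfkbiz, with 1.19, both past the technical SD of 0.39. Over the 5 Nfkbia probe sets the difference ran from 0.91 to 1.88, and over the 3 Nfkbiz probe sets from 0.75 to 1.19. By probe set, 6 of 16 were at 2-fold or more and 0 lower, against 4.88% and 3.9% of all probe sets. For Relb it was 0.64. For Birc3, Bcl3, Nfkb2, Tnfaip3 and Icam1, in the probe sets read for them, it lay between -0.31 and 0.36, within the technical SD, but the second Nfkb2 probe set had 0.75. Nfkbia and Nfkbiz were the members whose lowest signal was on the knockout-labelled sham array. That array enters the difference with a minus sign, so a low signal there raises it and is no separate observation. This difference uses all 4 arrays, and the fat sum was high on the 2 arrays that enter it with a plus sign, knockout-labelled injury and wild-type sham. The part of fat RNA in the differences of Nfkbia and Nfkbiz was not tested. Of the 7 injured tubule genes, 6 had a difference of 2-fold or more and 0 a lower one, and of the 10 proximal tubule genes 5 a lower one and 0 a higher one.

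Other genes of the pathway were read from 4 lists. Of the other subunits and classical inhibitors, Rela, the main activating subunit, had log2 signals of 10.62 in knockout-labelled and 9.62 in wild-type kidneys after injury, and of 9.59 in knockout-labelled and 9.53 in wild-type kidneys after sham surgery. The knockout-labelled injury array alone was high, and Rela was 2.04-fold higher there than on its sham array and 2.01-fold higher than in wild-type injury. The inhibitors Nfkbib and Nfkbie had log2 ratios of 0.61 and 0.57 after injury in the knockout-labelled pair, and of 0.38 and 0.51 in the wild-type pair. Nfkbid was under the floor on all 4 arrays.

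Among receptors and signalling proteins, 6 of 27 measured genes were higher at 2-fold and 0 lower after injury in the knockout-labelled pair, with a median log2 ratio of 0.37, against 6.06% of all genes higher and 6.89% lower. In the wild-type pair 2 of 25 were higher and 0 were lower (median 0.21), against 2.06% of all genes higher and 2.18% lower. Cd14, which passes bacterial lipopolysaccharide to its receptor, was 20.5-fold higher in the knockout-labelled pair and 2.83-fold higher in the wild-type pair. Tnfrsf12a, the receptor of the cytokine TWEAK, was 10.4-fold higher in the knockout-labelled pair and 4.97-fold higher in the wild-type pair. The adaptor Tirap was 2.72-fold and the TNF receptor gene Tnfrsf1a 2.68-fold higher in the knockout-labelled pair. Between the injury arrays 4 of 27 were higher in knockout-labelled kidneys and 0 lower, against 3.68% and 3.99% of all genes. They were Cd14 at 4.13-fold, Tnfrsf12a at 2.36-fold, the lipopolysaccharide receptor gene Tlr4 at least 2.24-fold and Tnfrsf1a just past 2-fold. Between the sham arrays 0 of 25 reached 2-fold, against 0.186% of all genes higher and 0.846% lower.

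The other target genes split. In the knockout-labelled pair 8 of 26 measured were higher and 1 was lower (median log2 ratio 0.33), against 6.06% and 6.89% of all genes. In the wild-type pair 4 of 25 were higher and 0 were lower (median 0.07), against 2.06% and 2.18%. Lcn2, a siderophore-binding protein and injury marker, was at least 230.2-fold higher in the knockout-labelled pair, and the acute-phase gene Saa3 was 12.4-fold, the chemokine gene Cxcl2 at least 4.83-fold and the metalloreductase gene Steap4 at least 4.66-fold higher. Steap4 had log2 signals of 7.94 and 4.66 in knockout-labelled and wild-type kidneys after injury, and of 4.76 and 6.42 in knockout-labelled and wild-type kidneys after sham surgery, over the floor on the same arrays as Adipoq. A second Steap4 probe set was over the floor on the knockout-labelled injury array alone, at 6.01. Sod2, the mitochondrial superoxide dismutase, was 2.07-fold lower. In the wild-type pair Lcn2 was 50.9-fold higher, the chemokine genes Cxcl1 4.92-fold and Cxcl10 2.75-fold and the growth factor gene Csf1 2.37-fold. The other Csf1 probe sets with the _a_at suffix had log2 ratios of 0.30 and 0.35 there.

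Between the injury arrays 5 of 25 target genes were higher in knockout-labelled kidneys and 1 lower, against 3.68% and 3.99% of all genes. The largest ratios were those of Saa3 at 9.05-fold, Steap4 at least 4.66-fold, the adhesion molecule gene Vcam1 at 4.59-fold and Cxcl2 at 4.40-fold. The log2 ratios of the other Vcam1 probe sets were 1.51 and 0.26. Cxcl10, also an interferon-induced chemokine, was the 1 gene lower, by 2.05-fold. Between the sham arrays 0 of 24 reached 2-fold, against 0.186% of all genes higher and 0.846% lower. Of the other negative regulators, 0 of 10 measured reached 2-fold in the knockout-labelled pair, against 6.06% of all genes higher and 6.89% lower. In the wild-type pair 0 of 9 did, against 2.06% and 2.18%. In a list this short, 0 is not far from these shares. The list medians in these pairs were 0.19 and 0.22, against -0.02 and 0.02 for all genes.

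**Figure D5:**
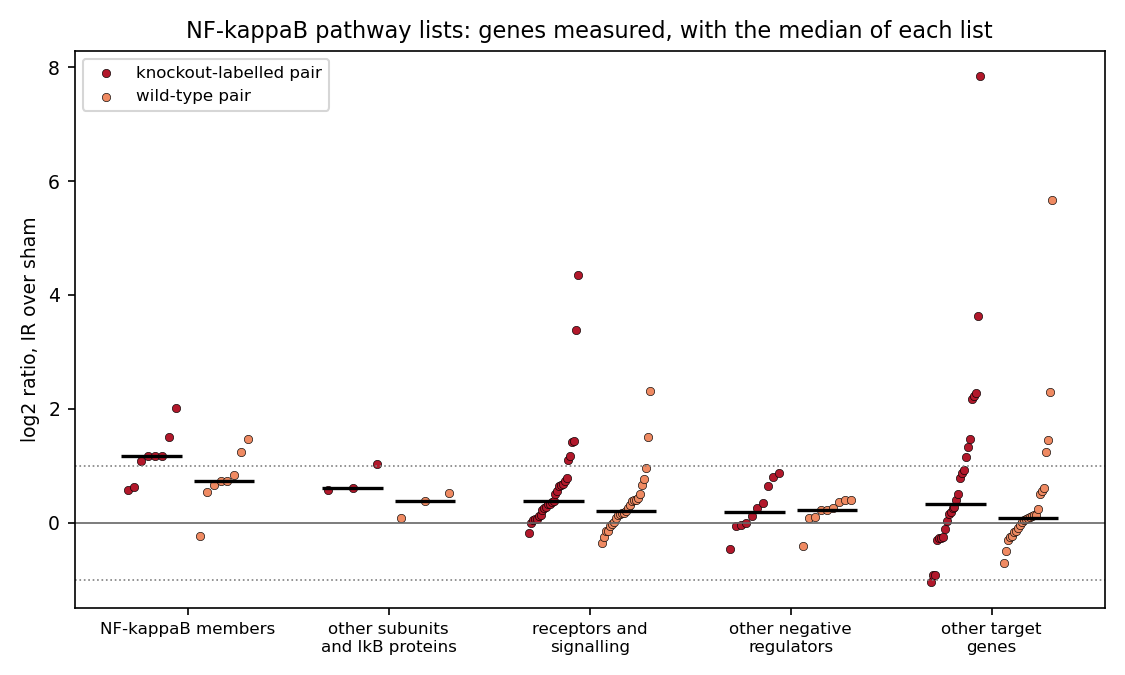
Log2 ratio of ischemia-reperfusion over sham (y axis) for each measured gene of the NF-kappaB members and of 4 other pathway lists, in the knockout-labelled pair (dark) and the wild-type pair (light); black bars are list medians and dotted lines mark 2-fold. The members have medians of 1.17 and 0.73, and the other negative regulators stay within 2-fold in both pairs.

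Nfkbiz had the widest range over the arrays among the members, 2.02 on the log2 scale. Among 12445 other genes over the floor on all 4 arrays, the nearest to its profile, by root mean square distance of log2 signals after subtraction of each gene's mean, were Ifrd1 at 0.08, Atf3 at 0.11, Abcb1b at 0.15, Klf10 at 0.16 and Capg at 0.17. Ifrd1 had log2 signals of 10.50 in knockout-labelled and 9.93 in wild-type kidneys after injury, and of 8.49 in knockout-labelled and 9.12 in wild-type kidneys after sham surgery. Like Nfkbiz, each of the 5 was lowest on the knockout-labelled sham array, which their choice by nearness to this profile brings with it. With 4 arrays this likeness is a description only.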

How the data were processed

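Kidney RNA of 4 groups was measured on 1 Affymetrix array each, with RNA pooled from 3 mice, extracted with Trizol and biotin-labelled per the labels' protocols. The authors deposited log2 signals for 45037 probe sets, and the log2 unit was read from the values. MAS5, which summarises the probes of each probe set as a signal, is named per the submitters' processing notes. Its version, the scaling target and any filter are not given in the sources used here. Signals of all probes enter as deposited.

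Probe sets were named through the array's annotation, which lists 1 symbol for 34945 probe sets, several for 932 and none for 9160. All 18 probe sets of the members matched RefSeq by Entrez identifier. A gene was read from its probe set with the highest mean signal, with _x_at probe sets used only where there was no other. Signals under the floor, 5.72 in log2 or 52.8 in linear signal, were set to it, and a gene under it on all compared arrays was not measured. Where the lower side was at the floor, the fold is a lower bound ("at least"). The 5 comparisons are log2 ratios (Python 3.11.15, numpy 2.4.6, pandas 2.3.3), called at 2-fold, with no test because each group has 1 array. All members are named. From each pathway list the genes at 2-fold with the largest folds were named, up to 4 per comparison. Adipoq, S100a8, S100a9, Csf1r, Cd68, Havcr1, Krt18, Nfkbib, Nfkbie and Nfkbid were added after their values were seen. The members, lists and rules were chosen with earlier results of these data known. Alternatives were other floors, a pseudocount of 32, other probe-set rules, quantile normalization and other sham controls.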

Additional observations from a re-analysis of the deposited data

Results flagged for a closer look

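Nfkbia differed in direction between the genotypes. It was higher after injury than after sham surgery in knockout-labelled kidneys and lower in wild-type kidneys, a difference of 1.41 on the log2 scale that was not tested. The same 1.41 separates the genotype ratios, since Nfkbia was higher in knockout-labelled kidneys after injury and lower after sham surgery. Against the knockout-labelled sham array the ratio of wild-type injury was 0.32, so its sign depended on the sham array used. Against the wild-type sham array the directions stayed opposite, with log2 ratios of 0.61 in knockout-labelled injury and -0.24 in wild-type injury.

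Nfkbiz was likewise higher in knockout-labelled than in wild-type kidneys after injury and lower after sham surgery, a difference of 1.19 on the log2 scale that was not tested. With 1 array per group no array could be checked against others of its group.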

How the results depend on the processing

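No paired analysis was possible because each group has 1 array. The number of members at 2-fold after injury in the wild-type pair was 2, and it was 1 with the floor at the 60th percentile, 1 with a pseudocount of 32 in place of the floor and 1 when compared with knockout-labelled sham. The other counts of members stayed within 1.5 times, and the medians within the technical SD, under the alternatives run. For knockout-labelled injury against sham the count was 5 or 6. Of 262 recomputed ratios of single members, 242 moved by less than the technical SD and 20 by more, 9 of them with the sham array of the other genotype. With plain _at probe sets alone Birc3 had a log2 ratio of 0.50 after injury in the knockout-labelled pair, against 1.09, and Nfkb2 had no such probe set. With the floor at the 60th percentile Relb had 0.68 there, against 1.18. Low signals of Rel and of the second Tnfaip3 probe set limit what can be read.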
